A study of Mus musculus with 4 samples.

Results

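Transcripts of 34 lysosomal genes, which encode the acid hydrolases of the lysosome, their accessory proteins and the proteins of its membrane, were compared between wild type (WT) and Tet2 knockout (Tet2 KO) mouse primary myoblasts. The 34 genes were taken by symbol from a table of 24445 genes, and each was present once. Within them, Ctss, Ctsc and Cd68, which are enriched in leukocytes, were set against the 31 general lysosomal genes. The cells came from C57BL/6 mice and began as satellite cells, the resident stem cells of muscle fibres. They were sorted from hindlimb muscle as negative for CD45, CD11b, CD31 and Sca1 and positive for CD34 and Integrin a7, and were grown on collagen until they were myoblasts. WT and Tet2 KO each had 2 RNA-sequencing libraries. The knockout was constitutive, made by deletion of exon 3 of Tet2, an enzyme that oxidises 5-methylcytosine, so other cell types of these animals carried it as well. The study's methods used young adult male mice unless stated otherwise and named the tibialis anterior as the muscle digested; the labels gave neither the age nor the number of animals per library.

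The lysosome is the acidic organelle in which proteins, glycans and lipids are degraded. Its soluble hydrolases are made in the endoplasmic reticulum, receive a mannose 6-phosphate tag in the Golgi and are carried to the lysosome by receptors for that tag, while a proton pump, the V-ATPase, acidifies the lumen. Most of its genes are used by all cells, and many are activated by the MiT/TFE transcription factors (Tfeb, Tfe3, Mitf and Tfec) through a promoter element called CLEAR. A few, such as cathepsin S, are used mainly by cells that take up and present antigens.

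Each gene had 1 value per group, the FPKM deposited by the authors (fragments scaled by the length of the transcript and by the number mapped), which was read from its group label as combining the libraries of a group, since the sources used here do not state it. These values carry no replicate error, so no test was run on them, and the depth was unknown. Changes are given as the log2 ratio of Tet2 KO over WT after adding 1 FPKM to both values, which understates the change of low genes. A change of at least 1.5-fold on that scale was counted where the mean of the groups reached 1 FPKM. Of the 11692 genes that reached this level, 435 (3.72%) were at least 1.5-fold higher and 338 (2.89%) at least 1.5-fold lower in Tet2 KO, and their median log2 ratio was -0.0044. Tet2 itself had 5.79 FPKM in Tet2 KO against 6.64 in WT, a value over all exons that does not show the deleted exon alone and so does not check the labels.

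Of the 34 lysosomal genes, 33 passed the filter, and Ctsw with a mean of 0.960 FPKM did not. Ctss, Ctsc and Cd68 were at least 1.5-fold higher in Tet2 KO, against 3.72% of all genes. Ctsl was the 1 gene at least 1.5-fold lower, against 2.89% of all genes. The other 29 that passed lay within 1.5-fold on this scale. The 30 general genes that passed had a median log2 ratio of 0.09, with a middle range from -0.09 to 0.22. The middle range of all genes ran from -0.11 to 0.09. Among these general genes 18 were higher and 12 lower in Tet2 KO, and among all genes 5703 were higher and 5989 lower. The summed FPKM of the 31 general genes was 2207 in Tet2 KO and 2230 in WT, a ratio of 0.990. Without Ctsl, a gene chosen after its value was seen, the sums were 2050.0 and 1931, a ratio of 1.06. The summed FPKM of Ctss, Ctsc and Cd68 was 117 in Tet2 KO and 30.5 in WT, a ratio of 3.85. They made up 5.05% of the summed FPKM of the 34 genes in Tet2 KO and 1.35% in WT. The median log2 ratio of these 3 genes lay 1.84 above that of the general genes.

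**Figure D1:**
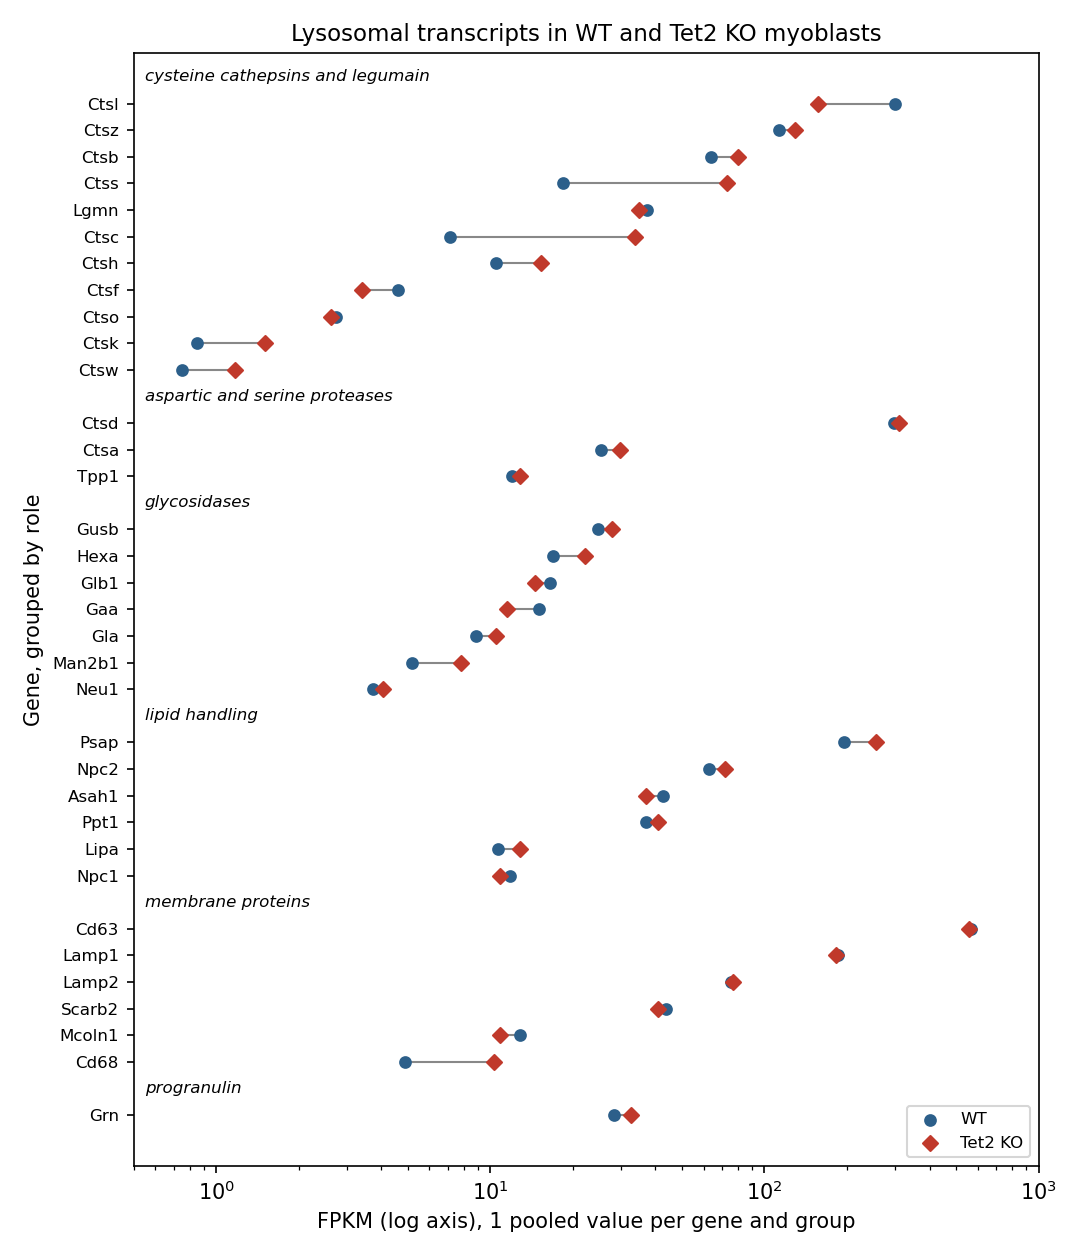
FPKM of the 34 lysosomal genes on a log axis, grouped by role; circles give WT and diamonds Tet2 KO, 1 pooled value per gene and group, and the line joins the pair. The pairs of Ctss, Ctsc and Cd68 lie apart with Tet2 KO on the right, that of Ctsl with Tet2 KO on the left, while Cd63, Lamp1, Lamp2 and Ctsd lie almost on one another.

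**Figure D2:**
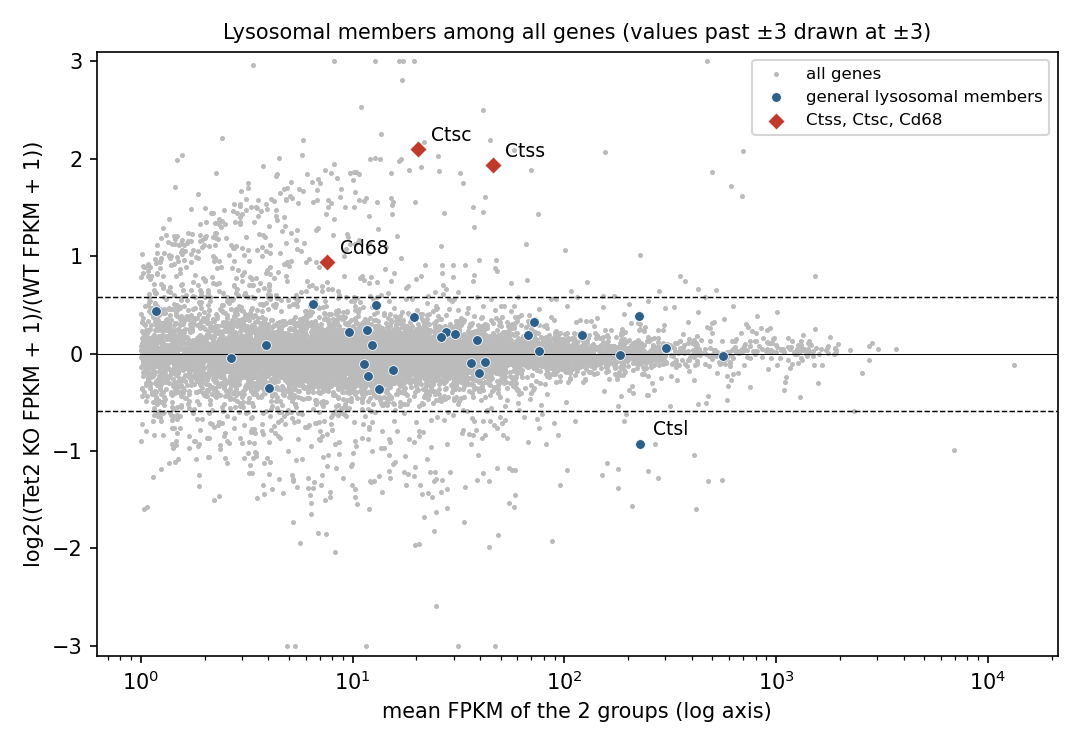
Log2 ratio (Tet2 KO over WT, 1 FPKM added to both) against the mean FPKM of the groups on a log axis, for 11692 genes in grey, 30 general lysosomal genes as circles and Ctss, Ctsc and Cd68 as diamonds; dashed lines mark 1.5-fold. Ctsc, Ctss and Cd68 lie above the upper line at 2.10, 1.93 and 0.94, and Ctsl lies below the lower line at -0.92.

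The leukocyte-enriched genes were examined first. Ctss, on chromosome 3 from 95330708 to 95360327 of the plus strand of mm9 with 8 exons, encodes cathepsin S, a cysteine protease that trims the invariant chain of MHC class II. It had 73.2 FPKM in Tet2 KO against 18.4 in WT, a 3.97-fold difference. Its log2 ratio of 1.93 held rank 32 from the top among the 11692 genes. Ctsc, on chromosome 7 from 95426595 to 95464371 of the plus strand with 7 exons, encodes cathepsin C, the dipeptidyl peptidase that activates the serine proteases of granulocytes and cytotoxic lymphocytes. It had 33.8 FPKM in Tet2 KO against 7.12 in WT, 4.75-fold, and its log2 ratio of 2.10 held rank 16. Cd68, on chromosome 11 from 69477715 to 69479672 of the minus strand with 6 exons, encodes macrosialin, a heavily glycosylated lysosomal membrane protein of macrophages. It had 10.3 FPKM in Tet2 KO against 4.90 in WT, 2.11-fold, and its log2 ratio of 0.94 held rank 267. Thus the difference of Cd68 was about as large as that of Ctsl in the other direction, and those of Ctss and Ctsc were larger.

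Leukocyte marker genes were set beside these values. All 14 leukocyte markers found in the table passed the filter, and all 14 were at least 1.5-fold higher in Tet2 KO, against 3.72% of all genes. The markers were chosen with earlier results of these data known, so this count is a description of the values. The summed FPKM of the 14 was 472 in Tet2 KO and 117 in WT, a ratio of 4.03, with single genes from 2.15-fold to 5.15-fold higher. The gene at 5.15-fold, Adgre1, had 3.67 FPKM in Tet2 KO against 0.712 in WT and passed through Tet2 KO alone. Ptprc, which encodes CD45, had 5.67 FPKM in Tet2 KO against 1.36 in WT. Itgam, which encodes CD11b, had 10.1 and 2.09 FPKM. No leukocyte marker was listed at 0 in either group, and the lowest WT value was the 0.712 FPKM of Adgre1. Cells with CD45 or CD11b on the surface were gated out before culture, and the source of these transcripts was not tested. None of the 10 lymphocyte markers reached a mean of 1 FPKM, and together they summed to 1.64 FPKM in Tet2 KO and 1.38 in WT. Cd3e, Cd2 and Ncr1 were listed at 0 in Tet2 KO, and Cd3g and Ms4a1 at 0 in WT. All 6 myoblast markers were abundant enough to pass, from 10.98 FPKM for Pax7 to 372 FPKM for Des in Tet2 KO, and had a median log2 ratio of -0.15. The 5 fibroblast markers that passed had a median of 0.32, with Thy1 lowest at 0.11 and Dcn highest at 0.95, and the 1 endothelial marker that passed, Pecam1, had -0.08. The part of leukocyte transcripts in the differences of Ctss, Ctsc and Cd68 was not tested, and in bulk RNA more cells of a type and more RNA per cell cannot be told apart.

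A list of 14 further lysosomal or granule genes, most of them used mainly by leukocytes, was compared in the same way. Of these, 11 passed the filter, all 11 were higher in Tet2 KO, and 10 were at least 1.5-fold higher, against 3.72% of all genes. This list too was chosen with earlier results of these data known, so its count is a description as well. The median log2 ratio was 1.55 over the 11 and 1.00 over all 14. Cst7 and Ctse were under 1 FPKM in WT and passed through Tet2 KO alone. Their summed FPKM over all 14 was 424 in Tet2 KO and 109 in WT, a ratio of 3.88. Ctsg, which encodes cathepsin G, a neutrophil serine protease that cathepsin C activates, had 36.4 FPKM in Tet2 KO against 7.31 in WT, the highest ratio of the list at 2.17. Elane and Prtn3, which encode other granule proteases processed by cathepsin C, had log2 ratios of 1.86 and 1.88. Ctse, which encodes the aspartic protease cathepsin E, was the lowest that passed, with 1.39 and 0.705 FPKM. Acp5, Lyz1 and Atp6v0d2, genes of osteoclasts, of intestinal cells and of osteoclasts and macrophages, respectively, stayed under a mean of 1 FPKM. In the same order they had 0.557, 0.101 and 0.821 FPKM in Tet2 KO against 0.335, 0.134 and 0.233 in WT, so Lyz1 was lower. The leukocyte-enriched list shares Lyz2 and Laptm5 with the leukocyte markers and Cst7 with the cathepsin inhibitors, so these lists are not independent of each other.

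**Figure D3:**
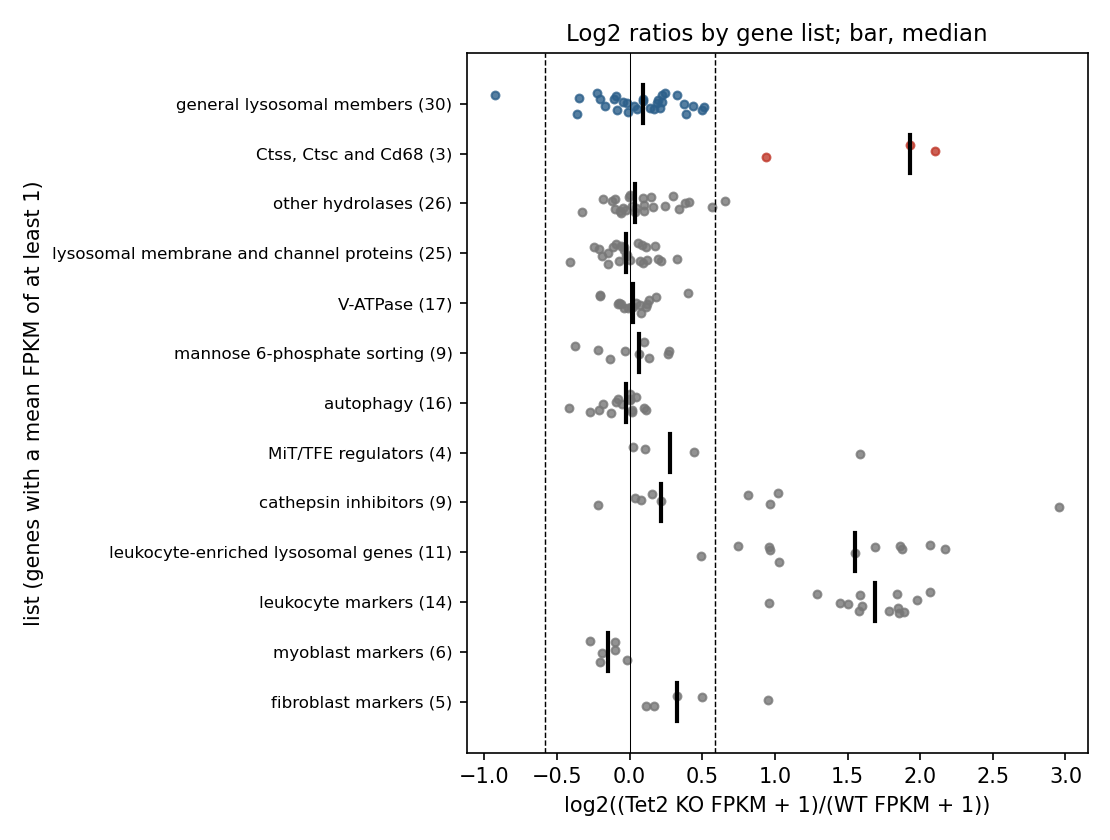
Log2 ratio (Tet2 KO over WT, 1 FPKM added to both) of single genes by list, with the number of genes of a mean FPKM of at least 1 in brackets, a bar at the median and dashed lines at 1.5-fold; points are spread vertically at random. General lysosomal genes, other hydrolases, the V-ATPase, sorting and autophagy lists centre between -0.03 and 0.09, and the leukocyte-enriched lysosomal genes and leukocyte markers centre at 1.55 and 1.69.

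The remaining cysteine cathepsins did not share the direction of Ctss and Ctsc as a group. Ctsl, on chromosome 13 from 64463198 to 64471828 of the minus strand with 8 exons, encodes cathepsin L, an endopeptidase of broad use in protein turnover. It was the most abundant cysteine cathepsin transcript in both groups. It had 157 FPKM in Tet2 KO against 299.5 in WT, 1.90-fold lower in Tet2 KO. Its log2 ratio of -0.92 held rank 163 from the bottom among the 11692 genes. Ctsb, which encodes cathepsin B, an endopeptidase and dipeptidyl carboxypeptidase, had 79.8 FPKM in Tet2 KO against 63.6 in WT. Ctsz, a carboxypeptidase gene, had 129.7 and 113 FPKM. Ctsh, which encodes an aminopeptidase, had 15.3 and 10.5 FPKM, a log2 ratio of 0.50. Ctsf was lower in Tet2 KO, with 3.40 and 4.62 FPKM, and Ctso was nearly level with 2.62 and 2.73 FPKM. Lgmn, which encodes legumain, a protease that cuts after asparagine and matures several cathepsins, had 35.0 and 37.4 FPKM.

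Ctsk and Ctsw were the lowest of the 34 transcripts. Ctsk encodes cathepsin K, the collagen-degrading protease of osteoclasts, and had 1.51 FPKM in Tet2 KO against 0.852 in WT. The ratio of the plain values was 1.77, and with 1 FPKM added its log2 ratio was 0.44. Ctsw, which is used by cytotoxic lymphocytes, had 1.17 and 0.749 FPKM, 1.56-fold without the added FPKM. Ctsk is the next gene upstream of Ctss, with a gap of 17.4 kb, and the next gene on the other side, Hormad1, was under 0.1 FPKM in both groups. Of the 10 genes within 200 kb of Ctss that passed the filter, Ctsk had the highest log2 ratio and none differed by 1.5-fold with 1 FPKM added. Cd68 lies between Mir1934, which was listed at 0 in both groups, and Eif4a1, 0.765 kb away, which had 922 and 907 FPKM. None of the 15 genes within 200 kb of Cd68 that passed differed by 1.5-fold on that scale, and around Ctsc the nearest genes, Grm5 and Rab38, were under 1 FPKM. Over all genes 3.72% were higher and 2.89% lower by that size, so sets this small do not set the neighbours apart from other genes.

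The makeup of the cysteine cathepsin and legumain transcripts differed between the groups, while their sum was similar. The 11 genes summed to 533 FPKM in Tet2 KO against 559 in WT. Ctsl made up 29.5% of this sum in Tet2 KO and 53.6% in WT. Ctss made up 13.7% and 3.30%, and Ctsc 6.35% and 1.27%. Ctsz accounted for 24.3% and 20.3%, and Ctsb for 15.0% and 11.4%. Thus Ctsl and Ctsz were the leading transcripts in both groups, and Ctss came after Ctsb and ahead of Lgmn in Tet2 KO but after Lgmn in WT. These shares are of pooled values and have no interval.

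**Figure D4:**
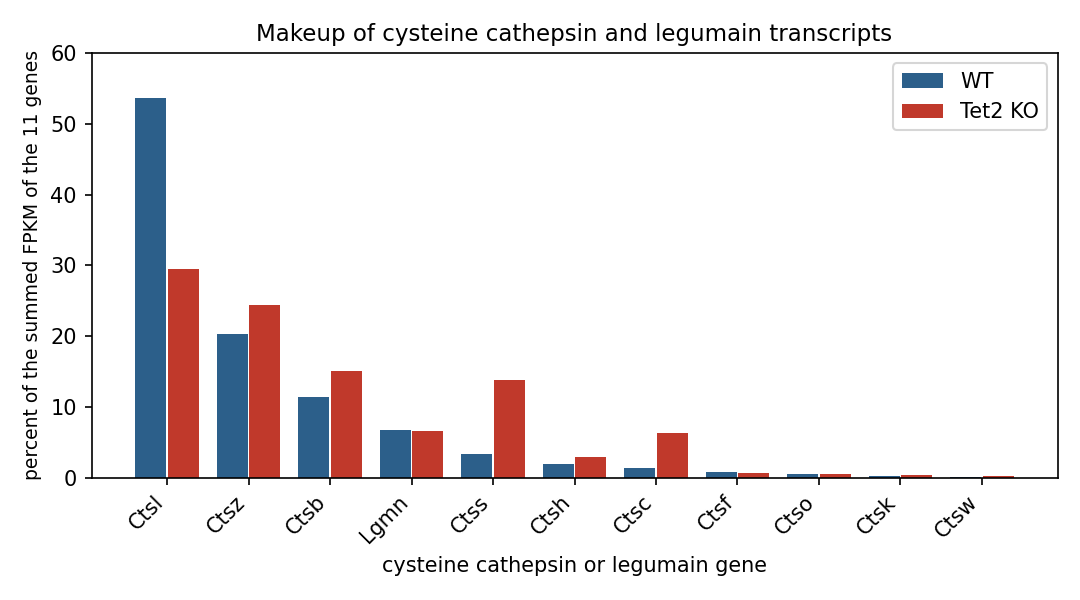
Share of each gene in the summed FPKM of the 10 cysteine cathepsin genes and legumain, as bars from 0, for WT and Tet2 KO, 1 pooled value per group. The bar of Ctsl is 53.6% in WT and 29.5% in Tet2 KO, and those of Ctss are 3.30% and 13.7%.

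Among the other proteases, Ctsd encodes cathepsin D, the main aspartic protease of the lysosome. It was the second most abundant lysosomal transcript here, with 309 FPKM in Tet2 KO against 297 in WT, a log2 ratio of 0.05. Ctsa, which encodes the serine carboxypeptidase that protects beta-galactosidase and neuraminidase, had 29.7 and 25.3 FPKM. Tpp1, which encodes tripeptidyl peptidase, the enzyme lost in a form of neuronal ceroid lipofuscinosis, had 12.8 and 12.0 FPKM. All 3 were slightly higher in Tet2 KO, by at most 0.22 on the log2 scale.

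The 7 glycosidase genes ranged from -0.36 to 0.51 on the log2 scale, with a median of 0.17. Man2b1, which encodes lysosomal alpha-mannosidase, had the highest ratio, with 7.80 FPKM in Tet2 KO against 5.17 in WT. The plain values differed 1.51-fold, just past the limit, and with 1 FPKM added they stayed inside it. Hexa, the alpha subunit of hexosaminidase that degrades GM2 ganglioside, had 22.1 and 16.9 FPKM. Gaa, which encodes acid alpha-glucosidase, the enzyme of lysosomal glycogen breakdown that is lost in Pompe disease, was lowest, with 11.5 and 15.1 FPKM. Glb1, which encodes beta-galactosidase, was also lower in Tet2 KO, with 14.6 and 16.6 FPKM. Gusb (beta-glucuronidase), Gla (alpha-galactosidase) and Neu1 (neuraminidase) had 27.8 and 24.7, 10.5 and 8.84, and 4.05 and 3.74 FPKM in Tet2 KO and WT, respectively.

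The 6 genes of lipid handling had a median log2 ratio of 0.17 and a summed FPKM of 428 in Tet2 KO and 359 in WT. Most of that difference was in Psap, which encodes prosaposin, the precursor of the activators of sphingolipid breakdown, with 254 FPKM in Tet2 KO against 195 in WT. Npc1 and Npc2 act in turn to move cholesterol out of the lysosome. Npc2, the soluble partner, had 72.0 and 62.9 FPKM, and Npc1, the membrane transporter, had 10.9 and 11.8 FPKM, so the pair differed in direction. Lipa (lysosomal acid lipase) had 12.8 and 10.7 FPKM, and Ppt1 (palmitoyl-protein thioesterase) had 40.8 and 36.9 FPKM. Asah1 (acid ceramidase) was lower, with 36.9 and 42.6 FPKM. Grn, which encodes progranulin, a secreted glycoprotein that is cut to granulins in the lysosome, had 32.7 and 28.2 FPKM.

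The structural proteins of the lysosomal membrane were nearly level. Lamp1 and Lamp2, the most abundant glycoproteins of that membrane, had 183 and 77.1 FPKM in Tet2 KO and 185 and 75.4 FPKM in WT. Cd63, a tetraspanin of late endosomes and exosomes, was the most abundant of the 34 transcripts, with 559 and 567 FPKM. A near-identical sequence elsewhere in the genome covered 85.9% of the Cd63 transcript, so its value is uncertain. Scarb2, which encodes LIMP-2, the carrier of glucocerebrosidase, had 41.0 and 43.7 FPKM. Mcoln1, which encodes the calcium release channel TRPML1, had 10.9 and 12.9 FPKM, a log2 ratio of -0.23. Apart from Cd68, the membrane proteins therefore ranged from -0.23 to 0.03 on the log2 scale. The 6 most abundant lysosomal genes, Cd63, Ctsd, Ctsl, Psap, Lamp1 and Ctsz, made up 68.5% of the summed FPKM of the 34 genes in Tet2 KO and 73.3% in WT.

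Lysosomal genes outside the 34 were then examined by role. Of 26 other hydrolases that passed, 1 was at least 1.5-fold higher, against 3.72% of all genes. None was at least 1.5-fold lower, against 2.89% of all genes, and the median of the list was 0.04. The higher gene was Manba, which encodes beta-mannosidase, with 2.35 FPKM in Tet2 KO against 1.12 in WT. Hyal1, a hyaluronidase gene, was lowest at -0.33. None of 25 membrane and channel proteins, 17 V-ATPase genes, 9 genes of mannose 6-phosphate sorting or 16 autophagy genes differed by 1.5-fold in either direction, with or without the added FPKM. Over all genes with 1 FPKM added, 3.72% were higher and 2.89% lower by that size. The medians of these lists were -0.03, 0.02, 0.06 and -0.03, respectively. The extremes were Ctns, the cystine transporter gene (-0.41), and Cln3 (0.32) for membrane proteins, and Atp6v1e1 (-0.21) and Atp6v0c (0.40) for the proton pump. They were Igf2r, a mannose 6-phosphate receptor gene (-0.38), and Nagpa (0.27) for sorting, and Map1lc3a (-0.42) and Wipi1 (0.11) for autophagy. With 1 FPKM added, these lists thus lay within 1.5-fold apart from Manba. Without it, Gm2a, which encodes the GM2 activator protein, was past that size as well, with 3.30 FPKM in Tet2 KO against 1.91 in WT, a plain ratio of 1.73.

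The 4 MiT/TFE genes were low and unequal. Tfeb had 1.41 FPKM in Tet2 KO against 1.37 in WT, and Tfe3 had 10.7 and 9.89 FPKM. Mitf had 2.09 and 1.27 FPKM. Tfec, a member of the family used mainly by macrophages, had 5.23 and 1.07 FPKM, 4.88-fold as a plain ratio. It was the 1 gene of the list past 1.5-fold with 1 FPKM added, against 3.72% of all genes higher by that size. The plain ratio of Mitf was 1.65. Of the cathepsin inhibitors, 9 of 10 passed and 4 were at least 1.5-fold higher in Tet2 KO, against 3.72% of all genes. Of these 4, Stfa1, Stfa2 and Cst7 were under 1 FPKM in WT and passed through Tet2 KO alone, so this count is a description of the values. Cst3 (cystatin C) and Cstb (stefin B), used by most cells, had 186 and 132 FPKM in Tet2 KO and 182 and 118 FPKM in WT. Cst7, which encodes cystatin F, a leukocyte inhibitor that acts on cathepsin C, had 1.88 and 0.471 FPKM. Stfa1, the highest of the list, had 6.77 FPKM in Tet2 KO; WT was listed at 0, so no ratio is given, and Cst6 was the lowest at -0.22. The other 2 past 1.5-fold were Stfa2 and Stfa3, stefin genes of neutrophils, with 2.65 and 5.49 FPKM in Tet2 KO against 0.797 and 2.69 in WT.

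The promoters of the lysosomal genes were searched for motifs in RefSeq sequence from 250 bases before to 50 after each annotated start (GRCm38.p6), which was found for 29 of the 34 genes. The core of the CLEAR element, CACGTG, reads the same on both strands. It was present for 10 of the 29 genes (34.5%), against 8.09% of the 27025 genes in the promoter set. The 29 genes all passed the filter, whereas the promoter set was not limited to such genes, so the shares here compare unlike sets. The longer form TCACGTGA, which contains the core, was present for 4 of 29 (13.8%), against 1.12%. The ETS-type motif GAGGAAGT, of the kind bound by the myeloid factor PU.1, was searched on both strands and does not overlap the others. It was present for 4 of 29 genes (13.8%), against 3.69%, and these were Ctss, Ctsc, Gla and Gusb. A match is a description of the letters and shows no binding.

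The genes with a CLEAR core were Ctsf, Ctsl, Lgmn, Ctsd, Ctsa, Gla, Glb1, Gaa, Lamp1 and Mcoln1, all of the general group. Only Ctsd, Ctsa, Gla and Mcoln1 held the longer form TCACGTGA, and the others, Ctsl included, held the core alone. The 5 with several cores, which lay within 1.5-fold between the groups, are shown with Ctsl, which did not, and the core is in capitals. The stretches are 5′ to 3′ on the strand of the gene and were placed in mm9 by exact match. They lie at chr7:149573805-149573850 (minus) for Ctsd, chr2:164659241-164659284 (plus) for Ctsa, chr8:13159080-13159171 (plus) for Lamp1, chr8:3500428-3500499 (plus) for Mcoln1, chrX:131135713-131135791 (minus) for Gla and chr13:64472039-64472078 (minus) for Ctsl.
Ctsd: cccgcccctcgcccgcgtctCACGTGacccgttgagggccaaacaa
Ctsa: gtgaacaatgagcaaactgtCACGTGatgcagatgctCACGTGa
Lamp1: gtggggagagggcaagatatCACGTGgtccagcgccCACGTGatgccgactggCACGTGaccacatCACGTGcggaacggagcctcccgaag
Mcoln1: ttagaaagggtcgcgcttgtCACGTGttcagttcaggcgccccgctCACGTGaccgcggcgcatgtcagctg
Gla: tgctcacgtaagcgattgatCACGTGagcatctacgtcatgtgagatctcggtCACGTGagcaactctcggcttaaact
Ctsl: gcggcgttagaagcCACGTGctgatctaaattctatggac

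Positions are counted from the annotated start as base 1, with negative values before it. Lamp1 held 4 cores that began between bases -61 and -15, and Ctsd, Ctsa, Gla and Mcoln1 held 2 each. Of the 2 cores of Ctsd, the one shown begins at base -98. The single core of Ctsl began farther out, at base -236. Over the 10 general genes with a core, the log2 ratios ranged from -0.92 to 0.22 with a median of -0.13. Over the 16 general genes that passed and had a promoter but no core, they ranged from -0.09 to 0.51 with a median of 0.18. The 4 genes with the longer form, Ctsd, Ctsa, Gla and Mcoln1, had log2 ratios of 0.05, 0.22, 0.22 and -0.23. Ctsb, Ctsh, Ctsw, Asah1 and Npc1 had no promoter sequence and are in neither set. Whether the core goes with the ratio was not tested.

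The stretches of Ctss and Ctsc are shown because both held the ETS-type motif, in capitals here as its reverse complement, and both were higher in Tet2 KO, by 3.97-fold and 4.75-fold. They lie at chr3:95330686-95330719 (plus) and chr7:95426424-95426471 (plus) of mm9.
Ctss: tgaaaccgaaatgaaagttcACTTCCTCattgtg
Ctsc: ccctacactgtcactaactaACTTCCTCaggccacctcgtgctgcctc

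In Ctss the motif began at base -2, and in Ctsc at base -151. The promoter of Cd68 held none of the 3 motifs in this window. Gla and Gusb held the ETS-type motif as well, and their log2 ratios were 0.22 and 0.17.

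**Figure D5:**
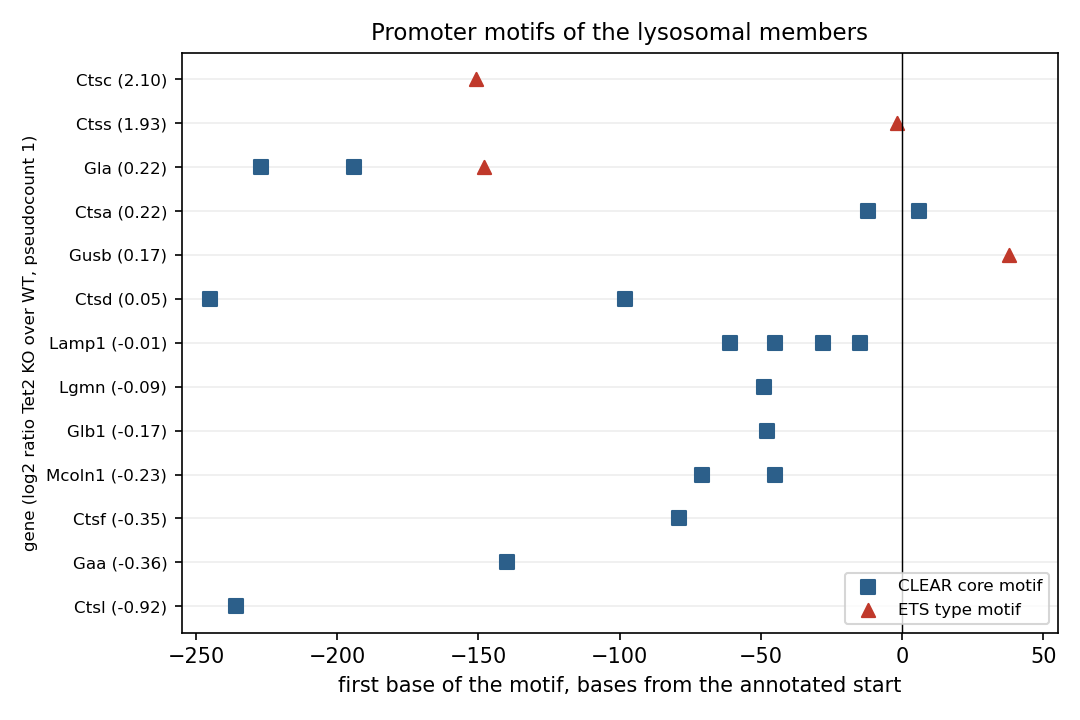
Position of the first base of each CLEAR core (squares) and ETS-type motif (triangles) relative to the annotated start, for the 13 lysosomal genes with a motif, ordered by log2 ratio (in brackets). The genes at the top, Ctsc and Ctss at 2.10 and 1.93, carry the ETS-type motif alone, and the genes from Ctsd at 0.05 down to Ctsl at -0.92 carry the CLEAR core alone. Between them, Gla at 0.22 carries both, Ctsa at 0.22 the core alone and Gusb at 0.17 the ETS-type motif alone. Genes with a promoter but no motif are not drawn, and they ranged from Cd68 at 0.94 to Scarb2 at -0.09.

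The loci of 8 of the 34 genes overlapped another gene of the table. TruSeq RNA libraries of this version do not keep the strand, so reads of such pairs may be shared. The overlapping genes were Fdft1 with Ctsb, Fibp with Ctsw, Nelfcd with Ctsz, Neurl2 and Pltp with Ctsa, Tmppe with Glb1, Cap1 with Ppt1, 3110002H16Rik with Npc1 and the microRNA gene Mir6415 with Scarb2. Ctss, Ctsc, Cd68 and Ctsl overlapped no gene. A near-identical stretch of at least 100 bases elsewhere in the genome was found for Cd63 and, over 14.7%, 8.36% and 2.80% of the transcript, for Lamp1, Psap and Ctsa.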

How the data were processed

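RNA of WT and Tet2 KO myoblasts, 2 libraries each, was sequenced. Per the study's methods and processing notes, the authors trimmed read pairs, aligned them to mm9 with TopHat2 2.0.13 and used Cuffdiff 2.2.1; the annotation was not given in the sources used here. The authors deposited 1 FPKM value per gene and group, and whether and how libraries were combined was not stated. The fold change, statistic, p-value and q-value columns deposited by the authors hold their own comparison and were not used. Coordinates are those of the table, with 1 added to each start.

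Log2 ratios used a pseudocount of 1, a mean FPKM of at least 1 and a size of 1.5-fold. The calculation was run on simulated data, with changes planted in genes well above that level and without replicates. That run checked the arithmetic only. Members and lists were chosen with earlier results of these data known. Genes named were the 34, the extremes of each list, Tet2, the MiT/TFE genes, Ptprc, Itgam and the neighbours of Ctss, Ctsc and Cd68. Ctsl was singled out, and further genes such as Elane, Prtn3, Cst3, Cstb, Cst7, Stfa2, Stfa3, Gm2a, Cd3e, Cd2, Ncr1, Pax7, Des, Acp5, Lyz1 and Atp6v0d2 were named, after their values were seen. The same holds for Adgre1, Cd3g and Ms4a1. Strands, exons and transcripts came from GENCODE vM1, which held all 34 genes; exons are those of the transcript with the longest coding sequence. Copies of at least 95% identity over 100 bases were sought by BLAST+ 2.17.0. Tables and plots were made with pandas 2.3.3, numpy 2.4.6 and matplotlib 3.10.9 under Python 3.11.15.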

Additional observations from a re-analysis of the deposited data

How the results depend on the processing

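No paired analysis was possible because the table holds 1 pooled value per group; leaving out each library was not run for the same reason. A value was taken as unmoved within 0.1 on the log2 scale, and a count within 1.5 times.

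Ctss, Ctsc and Cd68 were past 1.5-fold with a pseudocount of 0.1 or none, without the filter and with the filter raised to 5 FPKM. They were also past it on the TPM scale and after median centring. Ctsl was past it in the other direction under each of these settings. At a pseudocount of 0.1, 4.82% of all genes were higher and 3.83% lower by that size. Without the filter, 538 of 24445 genes were higher and 357 lower. On the TPM scale the shares were 4.69% and 3.32% of 12506 genes, and after median centring 3.78% and 2.86% of 11692. At 2-fold 2 of 33 members (Ctss and Ctsc) were higher and 0 lower, against 243 (2.08%) and 142 (1.21%) of the 11692 genes. At a smaller limit, 0.32 on the log2 scale, 9 of 33 members were higher and 3 lower, against 823 (7.04%) and 822 (7.03%) of the 11692 genes. With no pseudocount 5 members were higher, Ctsk and Man2b1 being added, against 4.94% of all genes. Ctsl was the 1 member lower, against 4.01% of all genes. Ctsk was at 0.852 FPKM in WT and passed the filter through Tet2 KO alone. A mean FPKM of at least 5 left 182 of 8874 genes higher (2.05%) and 207 lower (2.33%). More genes were thus lower than higher, the opposite of the 435 and 338 at a mean of at least 1. The log2 ratios of Ctsc and Cd68 were 2.23 and 1.06 at a pseudocount of 0.1 and 2.25 and 1.08 with none. The medians of the MiT/TFE, leukocyte-enriched lysosomal, leukocyte marker and fibroblast lists were 0.40, 1.79, 1.9996 and 0.44 at a pseudocount of 0.1, and 0.42, 1.94, 2.02 and 0.46 with none. At a mean FPKM of at least 5 they were 0.11, 1.77, 1.84 and 0.56. With no filter the leukocyte-enriched lysosomal median was 1.00, and under TPM the leukocyte marker median was 1.83. Of the general members, Ctsk and Ctsw moved by over 0.1 under some of these settings. No log2 ratio or median that was recomputed changed sign. Depth is unknown and limits the genes near 1 FPKM most.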

Other observations

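The genes around Ctsl were looked at after its value was seen. Within 200 kb, 4 other genes passed the filter, and their log2 ratios ranged from -0.49 to -0.01. None was past 1.5-fold on the scale with 1 FPKM added, against 3.72% higher and 2.89% lower among all genes. A set this small does not set the neighbours apart from other genes. Cdk20, which encodes a cyclin-dependent kinase, had 3.47 FPKM in Tet2 KO against 5.27 in WT, just past 1.5-fold without the added FPKM. Aaed1 had 13.6 and 18.4 FPKM. Ctsl itself had the lowest ratio of the region, at -0.92.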
